A study of Homo sapiens with 9 samples.

Results

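PaTu 8988t, an established human cell line of metastatic pancreatic adenocarcinoma, was compared on a matrix containing the R213A mutant of CPXM2 and on a control matrix. The comparison used the 6 libraries of those groups, of 9 libraries in all, and the 11193 genes that averaged 1 FPKM or more over the 9 libraries, of 58735 genes in the files. FPKM counts fragments per kilobase of gene, scaled to the size of the library. The labels give the matrices as CPXM2R213A OE ECM for R213A 1, 2 and 3 and as Ctrl ECM for control 1, 2 and 3, with no statement of how either matrix was made or how long the cells were exposed. All 6 libraries share the line, a DMEM medium with 10% serum and penicillin with streptomycin. The remaining 3 libraries, from a matrix containing wild-type CPXM2, entered only the filter on low values and a fit given in the closing section. By its title the study concerns the response of the cells to collagen that CPXM2 has aligned, and the comparison here gives the differences that go with the matrix of the mutant protein.

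CPXM2 belongs to the M14 family of carboxypeptidases, is secreted, and carries a discoidin domain, a fold that also serves as the collagen-binding part of the receptors DDR1 and DDR2. Cells read a collagen matrix through integrins that pair the beta chain ITGB1 with collagen-binding alpha chains, and through the discoidin receptors. Signals from these receptors reach focal adhesions, the actin cytoskeleton and the YAP/TAZ coactivators, which act on genes together with TEAD factors.

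The authors deposited the values as 2 tables. R213A 1, R213A 3 and control 1 lie in a table of 4 libraries, and R213A 2, control 2 and control 3 in a table of 5. Differences were therefore formed within each table, which gives 4 pairs of an R213A and a control library: 2 share control 1 and the other 2 share R213A 2, so the pairs of a table are not independent. No source used here says what separates the tables. Every difference and test is formed within the tables. A statement that the values of the groups overlapped or did not across all 6 libraries only describes the deposited levels. The share of all genes without overlap was not counted, so such a statement does not set a gene apart. Recovered totals lay between 15951927 and 18129181 reads in the R213A libraries and between 17160420 and 18211216 in the control libraries. Whether the libraries of a group stem from different cultures is not in the labels. The p-values therefore refer to the spread among the libraries at hand, and that spread may be technical.

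Transcripts of CPXM2 itself (chromosome 10, 123706207 to 123940267 on hg38) cannot check the labels, since the labels give the mutant protein as part of the matrix. R213A 3 had 1 read of it and the other 5 libraries had 0. Of the fibrillar collagen genes, COL1A1 lay between 0.0175 and 0.0300 FPKM in R213A libraries and between 0 and 0.0558 FPKM in control libraries. COL3A1 lay between 0 and 0.773 FPKM in R213A libraries and between 0.0392 and 0.828 FPKM in control libraries. For COL5A1 the ranges were 0.527 to 0.951 FPKM and 0.634 to 1.404 FPKM.

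No gene passed the test for R213A against control. In limma, with the table as a term, 0 of 11193 genes had an adjusted p under 0.05, the smallest adjusted p was 0.790, and 230 genes had an unadjusted p under 0.05, 115 of them higher and 115 lower on R213A matrix. In limma-voom on the recovered reads 0 genes were called and 95 had an unadjusted p under 0.05. The 95% interval of a gene's difference reached a median of 0.57 to either side on the log2(FPKM + 1) scale. In simulated data of the same design the test recovered 26.0% of 2-fold changes and 99.5% of 4-fold changes. These were shifts of 1 and 2 on the log2(FPKM + 1) scale, equal in both tables, with independent noise in each library. The measured differences were not alike in the tables, so these shares may overstate what the test could find here. The differences below are therefore given as measured values: every named gene has an adjusted p of at least 0.790 in limma, and its unadjusted p is for description.

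The difference between R213A and control was not alike in the 2 tables. Across the 11193 genes the difference in the 4-library table and that in the 5-library table, which share no library, had a Pearson correlation of -0.06, and the sign was shared by 48.7% of them. The pooled difference was above 0 in 48.2% of the genes and below 0 in 51.8%. Fitted on the 4-library table alone, limma called 2 genes (0.0179%), both processed pseudogenes, and on the other table alone it called 0, with 63 at an unadjusted p under 0.05. Genes are not independent replicates, and the genes of a table share its libraries. Tested in limma, 0 genes differed between the tables at an adjusted p under 0.05, with a smallest adjusted p of 0.268. At an unadjusted p under 0.05, 697 genes differed, and limma-voom called 10. Without control 2 or control 3 the count of calls in limma rose above 0, but the 5-library table then held a single library of each group.

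**Figure D1:**
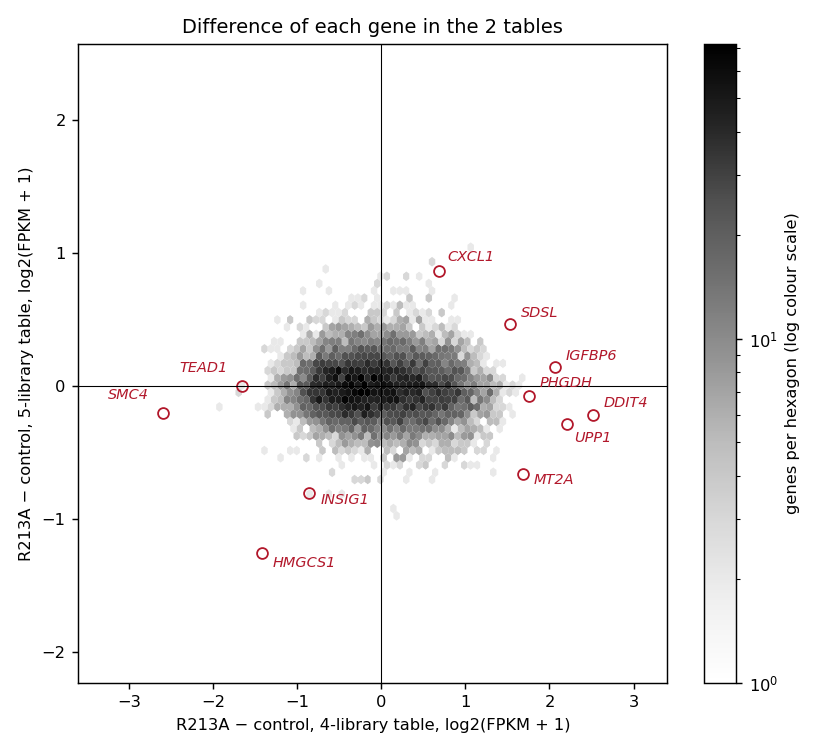
Each hexagon holds genes by their R213A minus control difference in log2(FPKM + 1), with the 4-library table on the x axis and the 5-library table on the y axis; the colour gives the number of genes on a log scale. The cloud is wide along x and narrow along y with no slope (correlation -0.06), and the circled genes are named in the text.

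The spread within groups differed by library. Counts of genes at least 2-fold apart, here and below, take a difference of at least 1 on the log2(FPKM + 1) scale. They leave out low genes that are 2-fold apart in FPKM alone. R213A 1 and R213A 3 differed at least 2-fold from each other in 499 genes. R213A 1 differed from control 1 in 2316 genes, but R213A 3 differed from control 1 in 387, fewer than from R213A 1. In the other table R213A 2 differed from control 2 in 376 genes and from control 3 in 57, while control 2 and control 3 differed from each other in 416. R213A 2 and control 3 were the closest of the 6 libraries, with a correlation of 0.992 across genes. Control 2 thus stood apart in the 5-library table, and the pair R213A 2 and control 3 is given beside the pair with control 2 where the list or gene turns on it.

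Within the 4-library table the difference followed the base composition and the length of genes. In the decile of genes with the lowest GC content (median 36.9%) the median difference was -0.64 for R213A 1 against control 1 and -0.34 for R213A 3 against control 1. In the decile with the highest GC content (median 64.2%) it was 0.84 and 0.35. By gene length the median difference in the 4-library table was 0.41 in the shortest decile and -0.40 in the longest. Across genes the rank correlation of the difference with GC content was 0.59 and 0.49 in the pairs of the 4-library table, against -0.03 in each pair of the 5-library table. With length it was -0.41 and -0.37, against -0.04 and 0.02. The genes of a pair share its 2 libraries. GC content and length therefore move with the differences of the 4-library table. The fit was repeated with both removed by splines, for the lists and for the genes that follow the naming rule given below. For these the values are given where they move a printed pooled difference by over 1.5 times, and for several others. How far GC content and length account for a difference was not tested beyond this.

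**Figure D2:**
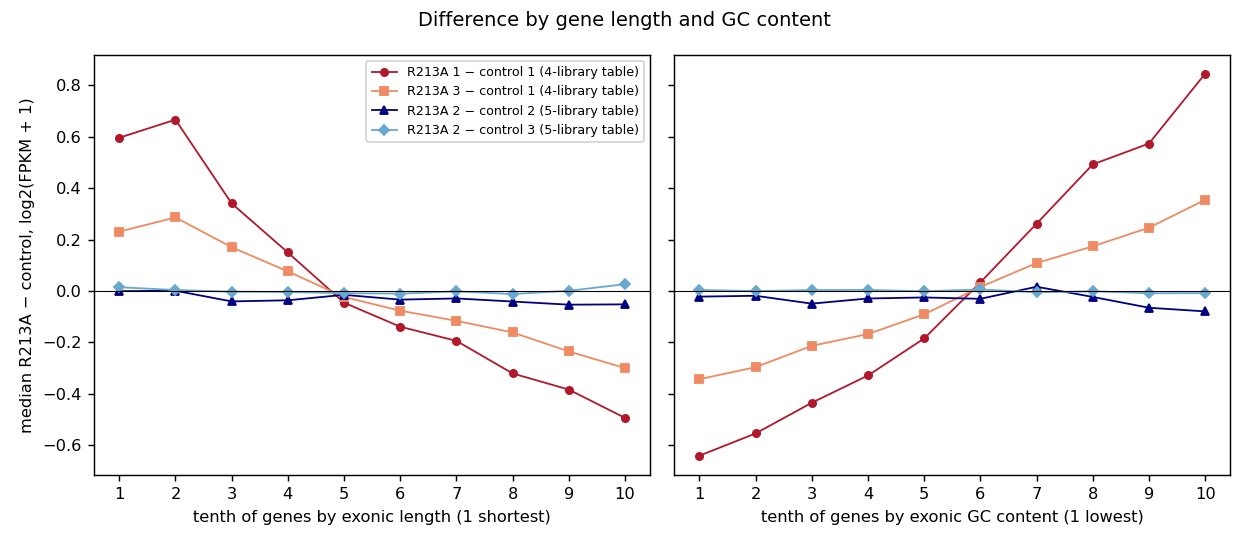
Median R213A minus control difference in log2(FPKM + 1) in deciles of genes by exonic length (left) and exonic GC content (right), with a line for each within-table pair. Both pairs with control 1 run from positive to negative with length and from -0.64 and -0.34 to 0.84 and 0.35 with GC content, and both pairs with R213A 2 stay near 0.

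The contrast in composition can be seen in the coding sequences of genes that stood at either end. Coding bases 301 to 390 of 4 genes, picked as examples, are shown 5′ to 3′, with G and C in capitals. They come from the longest protein-coding transcript of each in GENCODE 29. NDUFB7 (chromosome 19, minus strand) and RPL28 (chromosome 19, plus strand) were higher in both R213A libraries of the 4-library table. SMC4 (chromosome 3, plus strand) and ZNF770 (chromosome 15, minus strand) were lower there. In this order the differences in that table were 1.41, 1.30, -2.59 and -1.75. ZNF770 differed by 0.29 in the 5-library table.
NDUFB7: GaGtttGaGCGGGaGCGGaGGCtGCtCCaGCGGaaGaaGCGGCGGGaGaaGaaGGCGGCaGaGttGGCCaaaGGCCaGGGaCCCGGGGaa
RPL28: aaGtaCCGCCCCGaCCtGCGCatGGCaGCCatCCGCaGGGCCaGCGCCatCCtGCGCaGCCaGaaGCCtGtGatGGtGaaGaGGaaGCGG
SMC4: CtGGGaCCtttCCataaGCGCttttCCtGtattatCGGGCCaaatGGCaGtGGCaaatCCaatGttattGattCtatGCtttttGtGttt
ZNF770: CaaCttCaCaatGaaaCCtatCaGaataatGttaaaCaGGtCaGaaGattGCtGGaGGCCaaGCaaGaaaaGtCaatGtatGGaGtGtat
Over the whole transcripts GC content was 65.0% in NDUFB7 and 55.2% in RPL28, against 37.2% in SMC4 and 36.3% in ZNF770.

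Among protein-coding genes higher on R213A matrix in all 4 pairs, the smallest p belonged to SDSL, a gene of the serine dehydratase family (ENSG00000139410, chromosome 12, 113422237 to 113438276, plus strand). SDSL measured 4.59, 5.99 and 0.723 FPKM in R213A 1, 3 and 2, against 1.16, 0.220 and 0.277 FPKM in control 1, 2 and 3. Each R213A library lay above the controls of its own table, but across the tables the groups overlapped, since R213A 2 lay below control 1. The difference was 1.00 ± 0.27 on the log2(FPKM + 1) scale (SE, limma, unadjusted p = 0.00444). It was 1.54 from the 4-library table, against 0.46 from the other. The direction alone was common: 996 genes (8.9% of those tested) were higher in all 4 pairs and 1318 (11.8%) were lower in all 4.

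IGFBP6, which binds insulin-like growth factors, stood at 49.0, 36.2 and 33.5 FPKM in R213A 1, 3 and 2, against 9.31, 30.4 and 30.0 FPKM in control 1, 2 and 3. All 3 R213A values lay above all 3 control values, but the distance came from control 1: the 4-library table gave a difference of 2.06 and the 5-library table one of 0.14. Pooled it was 1.10 ± 0.39 (SE, unadjusted p = 0.0182). SMPD2, a neutral sphingomyelinase, measured 22.1, 16.4 and 7.70 FPKM in the same R213A libraries, against 7.44, 6.68 and 4.99 FPKM in the controls. The R213A libraries again lay above all controls, with R213A 2 close to control 1. Its difference was 0.80 ± 0.28 (SE, unadjusted p = 0.0165).

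The other genes with the smallest p among those higher in all 4 pairs included MDFI, an inhibitor of myogenic factors, with a difference of 0.70, and SNCG, gamma-synuclein, with 0.74. They were 0.38 and 0.37 with length and GC content removed. The chemokine gene CXCL1, whose product attracts neutrophils, differed by 0.69 in the 4-library table and by 0.86 in the other. CXCL1 stood at 0.796, 2.39 and 6.89 FPKM in R213A 1, 3 and 2, against 0.535, 2.58 and 4.27 FPKM in control 1, 2 and 3, and the groups overlapped across tables. Its neighbour CXCL2 measured 1.08, 4.10 and 13.8 FPKM in R213A 1, 3 and 2, against 0.853, 6.17 and 11.1 FPKM in the controls, a difference of 0.74 ± 0.36 (SE, unadjusted p = 0.0683). The pooled differences of SDSL, IGFBP6, SMPD2 and CXCL1 were 0.68, 0.72, 0.48 and 0.67 with length and GC content removed.

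Among genes lower in all 4 pairs, SMC4, a core subunit of the condensin complexes that compact mitotic chromosomes, had the largest difference of the named protein-coding genes. SMC4 (ENSG00000113810, chromosome 3, 160399274 to 160434962) stood at 1.31, 4.96 and 24.9 FPKM in R213A 1, 3 and 2, against 21.4, 33.3 and 24.9 FPKM in control 1, 2 and 3. R213A 1 and R213A 3 lay far below control 1, while R213A 2 lay level with control 3. The difference was -1.40 ± 0.52 (SE, unadjusted p = 0.0231), made of -2.59 from the 4-library table and -0.20 from the other. Tested between the tables, SMC4 had an unadjusted p of 0.00283 in limma and did not pass adjustment.

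RBL2, a pocket protein related to the retinoblastoma protein, measured 0.977, 1.80 and 6.08 FPKM in R213A 1, 3 and 2, against 5.08, 7.80 and 6.86 FPKM in control 1, 2 and 3. TLE4, a Groucho-type corepressor, stood at 11.8, 11.1 and 21.4 FPKM, against 25.5, 29.05 and 23.3 FPKM in the controls. The R213A values of TLE4 lay below all its control values, and those of RBL2 overlapped with control 1 through R213A 2. ATP8B1, a phospholipid flippase of the plasma membrane, had R213A values of 1.02 to 2.30 FPKM and control values of 2.92 to 5.24 FPKM, which did not overlap. The differences of RBL2, TLE4 and ATP8B1 were -0.80, -0.68 and -0.90 (SE 0.30, 0.27 and 0.28).

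**Figure D3:**
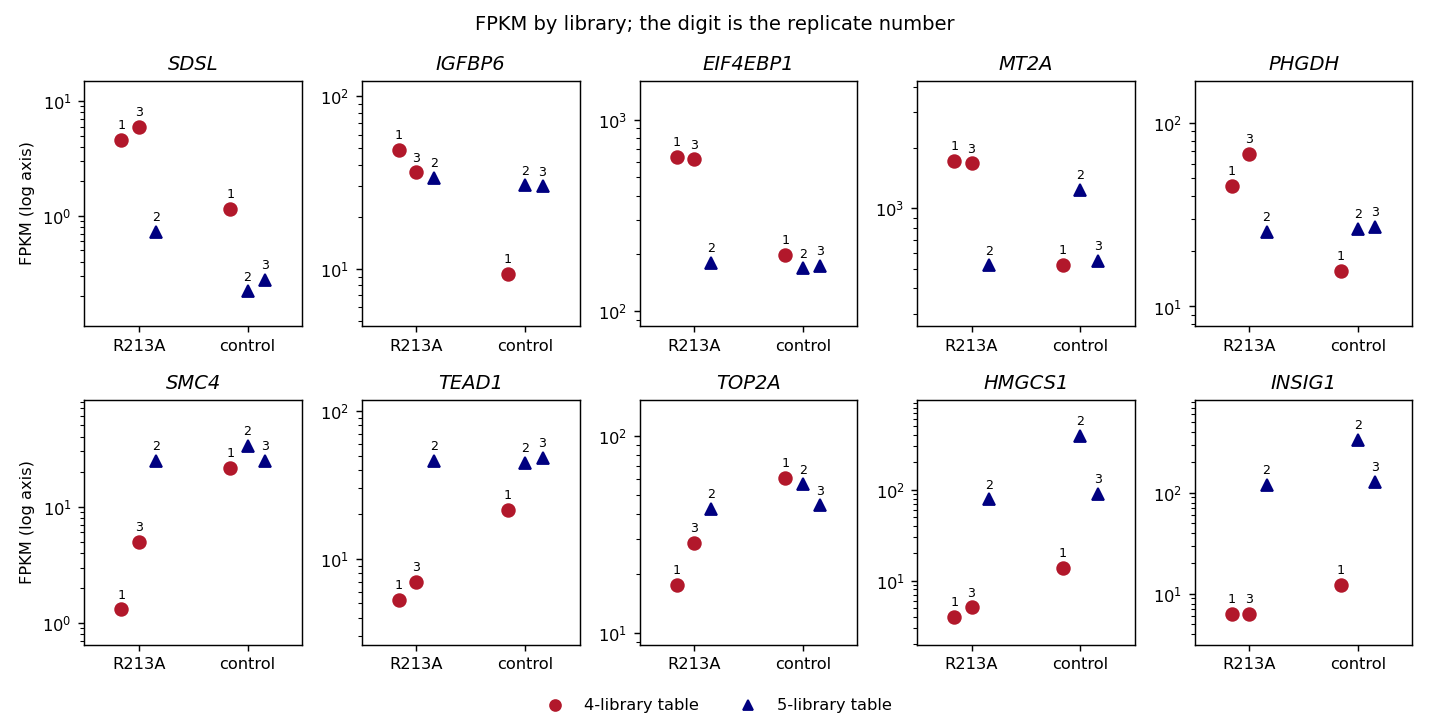
FPKM (log axis) of 10 genes in the R213A libraries, left in each panel, and the control libraries, right; circles are the 4-library table, triangles the 5-library table, and the digit is the replicate number. In IGFBP6, EIF4EBP1, PHGDH, SMC4 and TEAD1 the R213A and control circles are far apart and the triangles close together, and in HMGCS1 and INSIG1 control 2 stands highest.

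Of the cholesterol synthesis enzymes, a subset led by HMGCS1 had low values on R213A matrix in both tables. HMGCS1 is the cytosolic HMG-CoA synthase of the mevalonate pathway, and its gene is switched on by SREBP factors when sterols are scarce. HMGCS1 (chromosome 5, 43289395 to 43313512, minus strand) measured 3.97, 5.08 and 78.5 FPKM in R213A 1, 3 and 2, against 13.7, 394 and 89.8 FPKM in control 1, 2 and 3. Each R213A library lay below the controls of its table, and control 2 was the highest library. Across the tables the groups overlapped.

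The pooled difference was -1.34 ± 0.48 for HMGCS1 (SE, unadjusted p = 0.0192). Control 2 carried a large part in the 5-library table. HMGCS1 differed by -2.31 in the pair R213A 2 and control 2 and by -0.19 in the pair R213A 2 and control 3. Without control 2 the pooled difference was -0.89. HMGCS1 is AT-rich (40.2% GC), and with length and GC content removed its difference was -1.14.

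Of the 20 cholesterol synthesis enzymes tested, 6 were lower in all 4 pairs and 0 higher, against 11.8% and 8.9% of all genes. At an unadjusted p under 0.05, 5 were lower and 0 higher, against 1.03% of all genes in each direction, and 0 passed adjustment. Besides HMGCS1 these included the squalene epoxidase gene SQLE (difference -0.73), the lanosterol demethylase CYP51A1 (-0.87) and the desaturase SC5D (-0.70). SC5D measured 2.48, 3.57 and 42.3 FPKM in R213A 1, 3 and 2, against 6.35, 86.3 and 42.5 FPKM in control 1, 2 and 3. The list's median difference was -0.92 against control 2 and -0.04 against control 3, so the 5-library table gave low values in the pair with control 2 above all. In the 4-library table the enzymes split, with 9 lower and 9 higher in both pairs, where 44.9% and 39.7% of all genes were. PMVK, the phosphomevalonate kinase, was higher there, with 93.0 and 50.5 FPKM in R213A 1 and 3, against 29.4 FPKM in control 1.

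**Figure D4:**
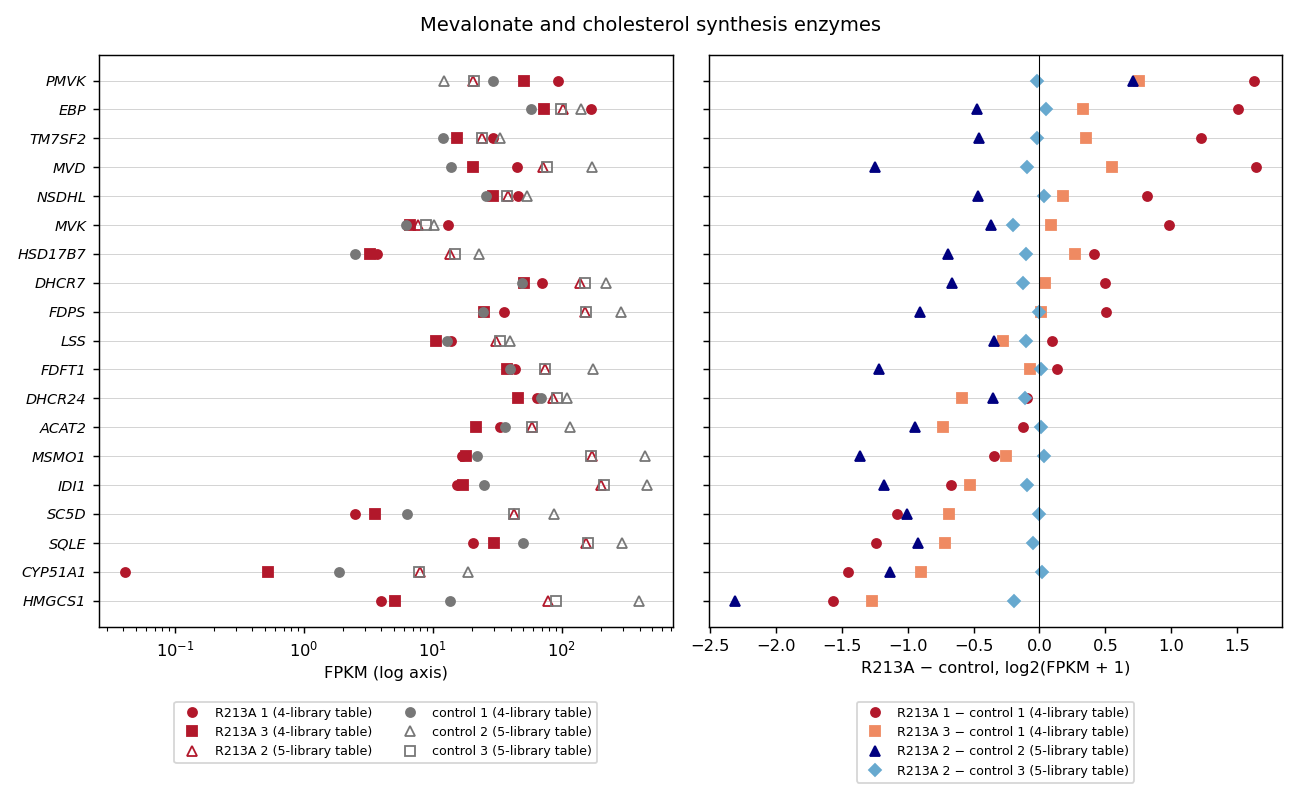
Enzymes of mevalonate and cholesterol synthesis, ordered by pooled difference, with FPKM (log axis) in each R213A and control library on the left and on the right the difference in log2(FPKM + 1) in each within-table pair. Control 2 (open grey triangles) is the highest library for most enzymes, and the pair R213A 2 minus control 3 lies near 0.

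Genes that sense and import sterols included members with the same pattern. INSIG1, which retains the SREBP escort protein in the endoplasmic reticulum, stood at 6.28, 6.32 and 119 FPKM in R213A 1, 3 and 2, against 12.2, 337 and 129 FPKM in control 1, 2 and 3. STARD4, a cytosolic sterol carrier, measured 4.50, 6.14 and 95.1 FPKM, against 10.2, 141 and 109.7 FPKM in the controls. Both were lower in all 4 pairs, with differences of -0.83 ± 0.36 and -0.61 ± 0.26 (SE). Of the 10 genes of this list 4 were lower in all 4 pairs and 1 higher, against 11.8% and 8.9% of all genes. STARD4 differed by -0.37 with length and GC content removed. INSIG1 without control 2 differed by -0.54.

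In fatty acid synthesis and desaturation the tables pointed the same way. Of 15 genes tested, 7 were lower in all 4 pairs and 0 higher, against 11.8% and 8.9% of all genes. The median difference was -0.54 in the 4-library table, where all genes had -0.04, and -0.34 in the other, where all genes had -0.02. ACLY, which makes cytosolic acetyl-CoA from citrate, stood at 23.7, 34.2 and 324 FPKM in R213A 1, 3 and 2, against 47.7, 579.7 and 361 FPKM in control 1, 2 and 3. SCD, the stearoyl-CoA desaturase, measured 99.7, 153 and 2275 FPKM, against 156, 3766 and 2773 FPKM in the controls. Both were lower in each pair, with differences of -0.61 ± 0.31 for ACLY and -0.42 ± 0.36 for SCD (SE). ACSL4, an acyl-CoA synthetase for polyunsaturated fatty acids, had the smallest p of the list, 0.0392, with a difference of -0.69 ± 0.29, and of -0.43 with length and GC content removed. The pair with control 3 gave a list median of -0.06, against -0.55 in the pair with control 2.

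Genes of cytosolic ribosomal proteins were above control 1 in R213A 1 and 3. Of 78 cytosolic ribosomal protein genes, 78 were higher in both R213A libraries than in control 1, where 39.7% of all genes were. RPS12, of the small subunit, had 3812, 2492 and 1052 FPKM in R213A 1, 3 and 2, against 1305, 1249 and 1051 FPKM in control 1, 2 and 3. RPL28, of the large subunit, had 324, 189 and 74.3 FPKM in the R213A libraries, against 100.3, 87.4 and 68.1 FPKM in the controls. In the 5-library table R213A 2 lay within the range of its controls for both genes.

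The list's median difference was 1.36 and 0.70 in the 2 pairs of the 4-library table, against -0.28 and 0.03 in those of the 5-library table. Higher in all 4 pairs were 0 of the 78 genes, against 8.9% of all genes. The pooled median of the list was 0.45, and 0.37 with length and GC content removed. In limma 0 of the 78 had an unadjusted p under 0.05, against 1.03% of all genes in each direction, so that count says little about the list. Host genes of small nucleolar RNAs, many of which carry the same kind of start sequence as ribosomal protein genes, went alongside. Of 20 such genes 17 were higher in both pairs of the 4-library table, against 39.7% of all genes. GAS5 among them stood at 89.5, 100.3 and 68.2 FPKM in R213A 1, 3 and 2, against 43.0, 106 and 62.6 FPKM in control 1, 2 and 3. Of 36 ribosome assembly factors 25 were lower in both pairs of that table and 9 higher, against 44.9% and 39.7% of all genes, with a pooled median of -0.11, and of -0.06 with length and GC content removed. Of 34 translation factors 17 were higher in both pairs and 12 lower. EIF3A among them, a subunit of an initiation factor, measured 20.2, 31.0 and 50.2 FPKM in R213A 1, 3 and 2, against 54.1, 94.0 and 52.2 FPKM in control 1, 2 and 3.

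EIF4EBP1, which binds the cap-binding protein and holds back translation, measured 637, 621 and 179.6 FPKM in R213A 1, 3 and 2, against 196, 168 and 172 FPKM in control 1, 2 and 3. R213A 1 and R213A 3 were more than 3-fold above control 1, while R213A 2 lay just above its controls. Within the tables the difference was 1.68 and 0.08, and pooled 0.88 ± 0.39 (SE, unadjusted p = 0.0477). EIF4EBP1 has 65.5% GC, and with length and GC content removed its pooled difference was 0.48.

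Nuclear genes of oxidative phosphorylation stood higher in the 4-library table as well. Of 75 genes of the respiratory chain and ATP synthase, 70 were higher in both pairs with control 1. Of 71 genes of the mitochondrial ribosome 57 were, against 39.7% of all genes. NDUFB7, a subunit of complex I, stood at 371, 164 and 42.9 FPKM in R213A 1, 3 and 2, against 92.3, 37.3 and 42.6 FPKM in control 1, 2 and 3. MRPS15, of the mitochondrial small ribosomal subunit, had 49.6, 35.4 and 26.4 FPKM in these R213A libraries, against 23.4, 20.8 and 22.7 FPKM in the controls, with no overlap. The median of the respiratory list was 0.72 across the 4-library table, against -0.03 across the other. In all 4 pairs 17 of its 75 genes were higher, against 8.9% of all genes. With length and GC content removed the pooled median was 0.28 for the respiratory list, against 0.36 without the correction, and 0.14 for the mitochondrial ribosome, against 0.23.

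Of 13 transcripts of the mitochondrial genome 10 were lower in both pairs of the 4-library table, where 44.9% of all genes were. In the 5-library table their median was 0.57 against control 2 and -0.30 against control 3. By the pooled difference 9 were lower and 4 higher, and the sign of the pooled median (-0.16) turned in 4 of the 22 alternatives. The pooled median was -0.27 with length and GC content removed. MT-ATP8, a small part of the ATP synthase, measured 30.3, 39.7 and 36.2 FPKM in R213A 1, 3 and 2, against 105 FPKM in control 1 and 42.4 and 58.8 FPKM in control 2 and 3. The 3 R213A values lay below all controls, a difference of -1.01 ± 0.32 (SE, unadjusted p = 0.0101). The abundant MT-CO1 measured 2458, 2969 and 2940.4 FPKM, against 3079, 3237 and 3448 FPKM in the controls, a difference of -0.19 ± 0.44. MT-CO2 was higher by the pooled difference, 0.24 ± 0.50, with 6544, 3929 and 2553 FPKM in R213A 1, 3 and 2, against 3948, 1720.2 and 3245 FPKM in control 1, 2 and 3. The pooled differences of MT-CO1 and MT-CO2 were -0.29 and 0.11 with length and GC content removed. MT-ATP8 and MT-ND4L overlap neighbouring genes, so their reads are uncertain.

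**Figure D5:**
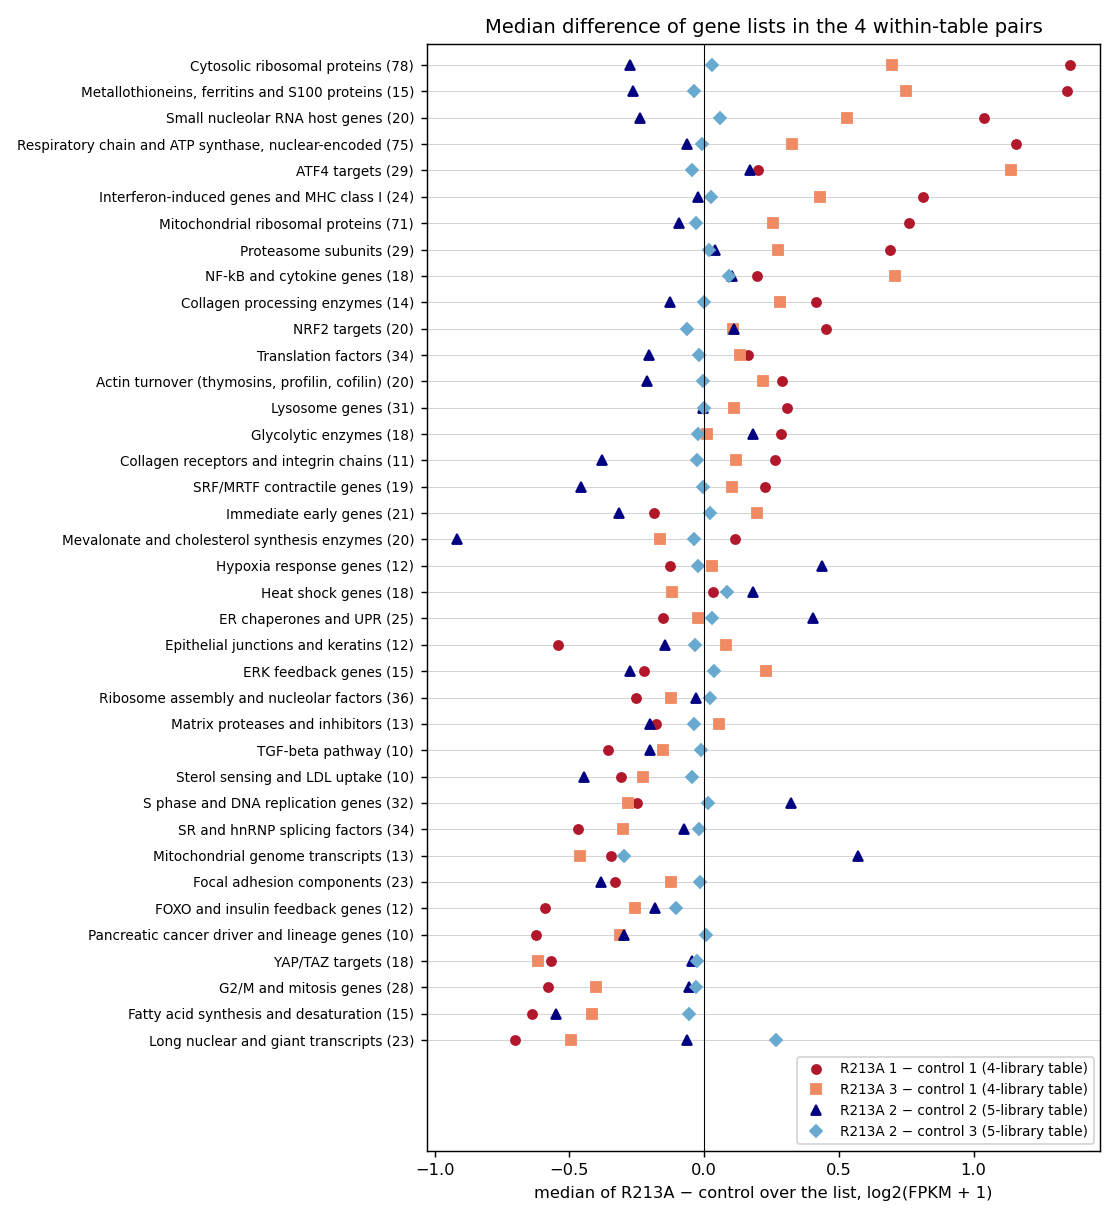
Median R213A minus control difference in log2(FPKM + 1) of gene lists with at least 10 genes tested (number in brackets), ordered by the 4-library table. Pairs with control 1 (circles, squares) spread from about -0.70 to 1.36, and the pair R213A 2 minus control 3 (diamonds) stays close to 0 in most lists.

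Genes of metal and calcium binding were also higher in the 4-library table. MT2A, a metallothionein that binds zinc and copper, stood at 1715, 1671 and 521 FPKM in R213A 1, 3 and 2, against 525, 1238 and 546 FPKM in control 1, 2 and 3. FTL, the ferritin light chain, measured 8067, 5740.2 and 2166 FPKM, against 2811, 2893 and 2034 FPKM in the controls. S100A16, a calcium-binding protein, stood at 157, 134 and 82.1 FPKM, against 51.1, 104 and 75.3 FPKM. In all 3 genes R213A 1 and 3 were high and R213A 2 was near control 3. Of 15 genes of this list, 12 were higher in both pairs of the 4-library table, against 39.7% of all genes. At least 2-fold higher in both were 4, against 1.2% of all genes. In the other table a total of 1 gene was higher in both pairs and 8 were lower, where 23.6% and 27.4% of all genes were. With length and GC content removed the pooled median of the list was 0.21, against 0.45 without the correction. For FTL, MT2A and S100A16 the pooled differences were then 0.23, 0.25 and 0.39, against 0.56, 0.52 and 0.69.

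Targets of ATF4, the factor of amino acid stress, separated R213A 3 from R213A 1. The median of 29 genes was 1.14 for R213A 3 against control 1, and 0.20 for R213A 1 against control 1. DDIT4, an inhibitor of mTORC1, measured 3.15, 47.6 and 59.2 FPKM in R213A 1, 3 and 2, against 1.48, 72.8 and 65.0 FPKM in control 1, 2 and 3. CHAC1, which degrades glutathione, stood at 3.37, 27.7 and 19.0 FPKM, against 1.40, 11.9 and 21.7 FPKM in the controls. R213A 1 and control 1 were the lowest libraries for both genes.

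PHGDH, the entry enzyme of serine synthesis, was high in both R213A libraries of the 4-library table. It measured 45.2, 67.8 and 25.5 FPKM in R213A 1, 3 and 2, against 15.7, 26.5 and 27.2 FPKM in control 1, 2 and 3. That is a difference of 1.76, against -0.07 in the other table. The later enzyme PSAT1 did not match it, at 70.3, 274 and 279 FPKM, against 93.2, 205 and 284 FPKM in the controls. Of the 29 ATF4 targets 16 were higher in both pairs of the 4-library table, against 39.7% of all genes. In all 4 pairs 0 were higher, against 8.9% of all genes. UPP1, uridine phosphorylase, was among the largest differences of the 4-library table, with 55.3 and 110.5 FPKM in R213A 1 and 3, against 16.2 FPKM in control 1. R213A 2 had 58.5 FPKM of UPP1, against 96.4 and 52.8 FPKM in control 2 and 3.

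Genes of mitosis were lower on R213A matrix in the 4-library table only as a majority: 19 of 28 were lower in both pairs, where 44.9% of all genes were, and the median was -0.52, with -0.01 for the other table. TOP2A encodes a topoisomerase that cells need in division and stood at 17.5, 28.7 and 42.7 FPKM in R213A 1, 3 and 2, against 60.9, 56.6 and 44.3 FPKM in control 1, 2 and 3. All 3 R213A values lay below all 3 control values, and the difference was -0.81 ± 0.33 (SE, unadjusted p = 0.0357). CDC20, the activator of the anaphase-promoting complex, had 355, 269 and 46.0 FPKM, against 202, 101 and 47.1 FPKM in the controls. CDC20 thus lay above control 1 in both R213A libraries. TOP2A has 39.1% GC and CDC20 57.9%, and with length and GC content removed the list median was -0.14, against -0.26 without the correction.

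Targets of YAP and TAZ were lower in the 4-library table, 15 of 18 in both pairs against 44.9% of all genes. Their median was -0.52 there and -0.05 in the other table. TEAD1, the DNA-binding partner of YAP, measured 5.25, 7.003 and 46.0 FPKM in R213A 1, 3 and 2, against 21.3, 44.3 and 48.0 FPKM in control 1, 2 and 3. LATS2, a Hippo kinase that is itself a YAP target, stood at 4.45, 6.65 and 31.9 FPKM, against 15.6, 35.5 and 32.7 FPKM in the controls. For both genes R213A 1 and 3 were the lowest libraries and R213A 2 lay beside its controls. The pooled differences were -0.83 ± 0.35 for TEAD1 and -0.73 ± 0.31 for LATS2 (SE, unadjusted p = 0.0410 and 0.0433).

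The matricellular targets most used as YAP readouts did not share the size. CCN1 measured 339, 301 and 788 FPKM in R213A 1, 3 and 2, against 434, 1325 and 798 FPKM in control 1, 2 and 3. CCN2 stood at 148, 225 and 385 FPKM, against 174, 1093 and 367 FPKM in the controls. CCN2 lay on both sides of its controls in each table. With length and GC content removed the list median was -0.40, close to -0.38 without the correction.

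Collagen receptors were measured directly. DDR1, the discoidin receptor of epithelial cells, measured 3.9998, 3.76 and 4.16 FPKM in R213A 1, 3 and 2, against 2.96, 5.38 and 4.16 FPKM in control 1, 2 and 3, a difference of 0.07 with a 95% interval of 0.52 to either side. The DDR1 difference was -0.02 with length and GC content removed. ITGB1 stood at 24.5, 64.0 and 215 FPKM, against 100.2, 295 and 225 FPKM in the controls. ITGA2, the alpha chain of its main collagen-binding pair in epithelia, measured 0.410, 0.550 and 11.8 FPKM, against 1.37, 8.48 and 9.59 FPKM in the controls. ITGB1 was lower in all 4 pairs, with a difference of -0.79 ± 0.41 (SE, unadjusted p = 0.0873), and ITGA2 was lower against control 1 and higher against control 2 and 3. OSCAR, a collagen-binding receptor known from osteoclasts, stood at 11.1, 26.7 and 13.9 FPKM in R213A 1, 3 and 2, against 3.51, 18.5 and 12.03 FPKM in control 1, 2 and 3.

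Of the 23 focal adhesion genes tested, 6 were lower in all 4 pairs and 0 higher, against 11.8% and 8.9% of all genes. VCL, vinculin, measured 14.02, 18.7 and 51.7 FPKM in R213A 1, 3 and 2, against 37.5, 74.5 and 51.9 FPKM in control 1, 2 and 3. The difference was -0.71 ± 0.30 (SE, unadjusted p = 0.0397), and R213A 2 lay level with control 3. ADAM9, a membrane metalloprotease, stood at 11.9, 25.4 and 136 FPKM, against 57.6, 140.0 and 144 FPKM in the controls. Of 13 matrix proteases and inhibitors, 6 were lower in all 4 pairs, ADAM9 among them, and 0 higher, against the same shares of all genes. For the contractile genes of SRF and MRTF the counts were mixed, with 1 lower and 1 higher in all 4 pairs of 19 tested.

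Epithelial and mesenchymal genes had no common direction. KRT18, a keratin of simple epithelia, measured 647, 431 and 230.1 FPKM in R213A 1, 3 and 2, against 211, 531 and 241 FPKM in control 1, 2 and 3. VIM, vimentin, stood at 131, 177 and 111 FPKM, against 81.0, 202 and 112 FPKM in the controls. Both genes were higher against control 1 and lower against control 2 and 3. Of 12 epithelial genes 1 was higher and 2 lower in all 4 pairs, and of 6 mesenchymal genes 0 and 1. The shares of all genes were 8.9% and 11.8%.

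Genes of inflammation and antigen presentation were higher more often than lower. Of 18 NF-kB and cytokine genes 4 were higher in all 4 pairs and 0 lower, and of 24 interferon-induced and MHC class I genes 7 were higher and 2 lower, against 8.9% and 11.8% of all genes. IFI6, an interferon-induced mitochondrial protein, stood at 19.1, 11.4 and 14.02 FPKM in R213A 1, 3 and 2, against 7.03, 10.3 and 11.4 FPKM in control 1, 2 and 3, a difference of 0.66 ± 0.28 (SE, unadjusted p = 0.0386). It was 0.34 with length and GC content removed. The median of the interferon list was 0.61 against control 1 and 0.00 in the other table.

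Chaperones of the endoplasmic reticulum were often higher in the 5-library table, 16 of 25 in both pairs against 23.6% of all genes. HSPA5, the main chaperone of the compartment, measured 194, 233 and 547 FPKM in R213A 1, 3 and 2, against 173, 318 and 500.4 FPKM in control 1, 2 and 3, and was higher in all 4 pairs. The list median was 0.40 in the pair with control 2 and 0.03 in the pair with control 3. Against control 1 the counts in both pairs were 8 higher and 11 lower, where 39.7% and 44.9% of all genes were.

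The 5-library table held few sizeable differences of its own. At least 2-fold in both pairs, 12 genes (0.107%) were higher and 5 (0.0447%) lower on R213A matrix, against 134 (1.2%) and 113 (1.01%) in the 4-library table. Below that size, HES4, a target of Notch signalling, stood at 33.2, 14.8 and 4.45 FPKM in R213A 1, 3 and 2, against 11.3, 2.89 and 2.80 FPKM in control 1, 2 and 3. HES4 was higher in all 4 pairs, by 0.92 in the table of 4 libraries, by 0.51 in that of 5, and pooled by 0.71 ± 0.31 (SE, unadjusted p = 0.0465). It has 73.9% GC, and with length and GC content removed its pooled difference was 0.35. SMN1, of the spliceosome assembly complex, measured 6.33, 7.15 and 7.08 FPKM, against 7.80, 10.1 and 13.6 FPKM in the controls, with all R213A values below all control values. SMN1 has a near-identical copy, so its value is uncertain.

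The microRNA gene MIR6739 (chromosome 1, 201863373 to 201863447) was at least 2-fold lower in all 4 pairs. On the log2(FPKM + 1) scale no protein-coding gene was at least 2-fold apart in all 4. In FPKM alone SDSL was, with 0.723 FPKM in R213A 2 against 0.220 and 0.277 FPKM in control 2 and 3. On the log2(FPKM + 1) scale its differences in those pairs were 0.50 and 0.43. MIR6739 rests on 0, 2 and 0 reads in R213A 1, 3 and 2, against 8, 3 and 5 reads in control 1, 2 and 3. Its difference of -2.05 ± 0.34 (SE, unadjusted p = 0.000124) did not pass adjustment, and an mRNA library is not made to measure such a short precursor.

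Of 20 epithelial genes 12 reached a mean of 1 FPKM, and they summed to 548 to 1035 FPKM in R213A libraries and 469 to 906 FPKM in control libraries, carried by the keratins KRT18 and KRT8. The junction gene CDH1 lay between 0.0358 and 0.111 FPKM in R213A libraries and between 0.00863 and 0.136 FPKM in control libraries, and KRT19, ESRP1, CLDN4 and CLDN7 were also under 1 FPKM in all 6. Mesenchymal genes, of which 6 of 18 reached 1 FPKM, summed to 258 to 275 FPKM in R213A libraries and 197 to 349 FPKM in control libraries. Markers of cells that could have come with a matrix were low. Of 20 fibroblast markers 0 reached a mean of 1 FPKM and 2 had 0 reads in the 6 libraries, and their summed level lay between 1.57 and 2.89 FPKM in R213A libraries and between 1.75 and 3.20 FPKM in control libraries. Of 17 immune markers 0 reached it and 4 had 0 reads, with sums of 0.410 to 1.36 FPKM and 0.310 to 0.518 FPKM. Of 13 endothelial markers 3 reached it, with sums of 7.03 to 13.1 FPKM in R213A libraries and 6.17 to 8.46 FPKM in control libraries. Of 11 fat cell markers only CFD did, at 34.6, 19.6 and 3.65 FPKM in R213A 1, 3 and 2, against 11.7, 5.78 and 3.84 FPKM in the controls. In bulk RNA, fewer cells of a type and less RNA per cell cannot be told apart.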

How the data were processed

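FPKM values per gene were deposited by the authors in 2 tables. The submitters' processing notes name hg38 and bcl2fastq, and the labels name a stranded mRNA kit. For aligner, counting program, strand setting and annotation, no value is given in the sources used here. Reads of overlapping, antisense and near-identical genes are therefore uncertain. FPKM times gene length gave whole reads for 100% of values (tolerance 0.01 reads), but the scaling was 0.850 to 1.09 times what the read totals give. Of the identifiers, 58207 matched a symbol.

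Differences were fitted with limma 3.58.1 in R 4.3.3 on log2(FPKM + 1), which understates changes of low genes, for genes averaging 1 FPKM or more. The 6 libraries entered with group and table as terms and a variance trend, which leaves 3 residual degrees of freedom, so the estimate is the mean of the 2 within-table differences. Adjustment followed Benjamini and Hochberg, over the 11193 genes with a threshold of 0.05. The fit was tested on simulated data with 200 changed genes.

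Members and the 45 gene lists were chosen with earlier results of these data known, so list counts are descriptions. Named genes followed a rule for protein-coding genes: 10 higher and 10 lower past the threshold or, as here, of smallest unadjusted p with the same direction in 4 of 4 pairs; genes at least 2-fold apart in 4 of 4 pairs; the 10 highest and 10 lowest per table; per list 4 of highest level and 2 of smallest p; and 13 fixed genes of CPXM2 and its matrix. From these the text takes genes of known function. CHAC1, CXCL2, CYP51A1, PMVK, SC5D and MIR6739 lie outside the rule and were named after their values were seen. GC content was known for 11188 tested genes. Alternatives changed the pseudocount, filter, scaling, terms, libraries and model. The contrasts within a table and the GC correction were added after seeing the data. The planned edgeR and DESeq2 fits were not run; limma-voom on the recovered reads was the count model tried.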

Additional observations from a re-analysis of the deposited data

Results flagged for a closer look

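In 10 of 42 gene lists with 3 or more genes tested, both pairs of the 4-library table had a median difference of a sign opposite to both pairs of the 5-library table. This is a description of medians, and the difference between the tables was not tested for lists. Positive in the 4-library table were metallothioneins, ferritins and S100 proteins (median 1.00, against -0.13 in the 5-library table), the nuclear respiratory chain genes (0.72, against -0.03) and mitochondrial ribosomal proteins (0.54, against -0.03). Smaller were translation factors (0.25, against -0.13), actin turnover genes (0.25, against -0.11), lysosome genes (0.25, against -0.01), collagen receptors (0.19, against -0.24) and contractile genes of SRF and MRTF (0.09, against -0.26). Negative in the 4-library table were S phase genes (-0.28, against 0.17) and endoplasmic reticulum chaperones (-0.07, against 0.23). The pair R213A 2 and control 3 gave medians within 0.04 of 0 in each of these lists. These lists were picked for the same sign in both pairs of the 5-library table. The median was further from 0 in the pair with control 2 in each of them. For lysosome genes both were near 0, at -0.003 with control 2 and -0.001 with control 3. All genes tested had medians of -0.04 (4-library table) and -0.02 (5-library table). Close to these lay the 5-library medians of respiratory chain, mitochondrial ribosome and lysosome genes, and the 4-library median of the chaperones. There the median hardly departs from that of all genes in the same table.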

How the results depend on the processing

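The count of 0 genes called did not hold with no filter on low values (193 of 58735 genes). In that fit limma reported no residual variance for most genes. The count did not hold either with the replicate number as a block and the table term (9). Nor did it hold for the contrast within the 4-library table, which rests on a single control library. Leaving out each library gave 0 to 6 calls (6 without R213A 3, 4 without R213A 2, 2 without control 3). The 230 genes at an unadjusted p under 0.05 became 2833 with no filter, 108 at a mean of at least 5 FPKM, 85 with no table term, 95 with limma-voom, 1947 in the 4-library table alone, 63 in the 5-library table alone, and 63 to 1950 without each library (137 without R213A 1, 355 without R213A 3, 1950 without R213A 2, 63 without control 1, 514 without control 3). Genes whose difference depended on the table numbered 37 with no filter, 10 with limma-voom and 0 to 116 without each library, where such a fit could be made (45 without control 2, 116 without control 3). Of the genes at an unadjusted p under 0.05, 50.0% were higher, but 60.4% under quantile normalization, 59.6% under median of ratios and 37.5% with length and GC removed. Whether equal replicate numbers pair the libraries could not be settled (correlation of deviations 0.73, 0.51 and -0.65 for numbers 1, 2 and 3). The deviations were taken from group means and so carry the tables. Libraries of number 1 share a table, as do those of number 2, but those of number 3 do not. With all 9 libraries 0 genes were called. Genes and lists whose sign differed between the tables took the sign of the table kept when only 1 table was used. With no filter SDSL, TMEM238, HMGCS1 and SMC4 passed the threshold. Without control 1 or R213A 2 each difference is that of the remaining table. With 3 libraries a group in separate tables, the simulation recovered 26.0% of 2-fold changes on the log2(FPKM + 1) scale. These were equal in both tables, with independent noise. Smaller changes were not simulated.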

Other observations

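Splicing factors and very long transcripts were lower on R213A matrix in the 4-library table. Of 34 SR and hnRNP genes 26 were below control 1 in both R213A libraries, and of 23 giant or nuclear transcripts 22 were, against 44.9% of all genes. RBM25, a splicing regulator, measured 4.54, 5.46 and 7.91 FPKM in R213A 1, 3 and 2, against 11.013, 13.8 and 8.05 FPKM in control 1, 2 and 3, with every R213A value below every control value. UTRN, which encodes the cytoskeletal linker utrophin, had 1.38, 1.47 and 12.3 FPKM in the R213A libraries, against 4.71, 10.2 and 11.7 FPKM in the controls, and the groups overlapped. With length and GC content removed the pooled medians of these lists were 0.07 and -0.06, and -0.16 and -0.28 without the correction.

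Proteasome subunits were higher in the 4-library table, 21 of 29 in both pairs against 39.7% of all genes. In all 4 pairs 9 were higher, against 8.9% of all genes. PSMB4, a subunit of the catalytic core, had 404, 274 and 186 FPKM in R213A 1, 3 and 2, against 195, 172 and 185 FPKM in control 1, 2 and 3. R213A 2 lay below control 1 and just above control 3. Of 12 FOXO and insulin feedback genes 11 were lower in both pairs of the 4-library table, against 44.9% of all genes. In all 4 pairs 4 were lower, against 11.8% of all genes. Their list's median difference was -0.39 in the 4-library table, against -0.20 in the 5-library table.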
